A study of Arabidopsis thaliana with 4 samples.

Results

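SWEET proteins are membrane carriers that let glucose, fructose or sucrose pass down its own concentration gradient, out of or into cells and vacuoles. In Arabidopsis flowers they feed organs that cannot make enough sugar of their own, such as developing pollen, and they release the sucrose that becomes nectar. The 4 genes described here, SWEET2, SWEET8, SWEET9 and SWEET10, were chosen by annotated symbol, with earlier results of these data known. Each has a probe that the array annotation assigns to that gene alone, a condition that SWEET15 also meets. They are 4 of 26133 features analysed, of which 5415 were loci with a probe of their own, and each of the 4 rests on 1 probe. The family has 17 genes in Arabidopsis. Beside these 4, SWEET15 (SAG29 in the reference table) has its own probe, 10 further genes appear only on probes listed for several SWEET genes, and SWEET11 and SWEET12, the phloem-loading sucrose exporters of leaves, have none listed.

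RNA of agamous inflorescences and RNA of wild-type inflorescences of Arabidopsis thaliana were hybridised together on 4 2-colour long-oligonucleotide arrays, set1 to set4. The MADS-domain protein AGAMOUS gives stamens and carpels their identity and stops the floral meristem, and agamous flowers repeat sepals and petals in place of these organs. The labels give no allele, ecotype, age or stage. Nothing says that each set had its own plants, and the p-values below cover no more than the spread among the 4 arrays. The number of arrays limits the precision. Because whole inflorescences were compared, fewer cells of a type and less RNA per cell cannot be told apart. No probe was assigned to AGAMOUS alone, so the mutated gene could not serve as a check of the labels. Ratios carry no level of a transcript, so the presence of a tissue's markers could not be checked either.

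Each value is a log2 ratio of the 2 channels of an array, deposited without a statement of which channel is the numerator. The labels place agamous RNA in channel 1 on set1 and set3 and in channel 2 on set2 and set4. The data run otherwise. Pearson's r over probes, leaving out values at the ends of the deposited range, was 0.70 for set1 with set4 and 0.77 for set2 with set3. For the pairs that the labels give the same channel order it was -0.66 (set1 with set3) and -0.71 (set2 with set4). Over all values, bounds included, r was 0.60, 0.49, -0.08 and -0.45 for these pairs in turn, so the opposition of set1 and set3 is clear only within the bounds. The direction of the ratios is therefore not settled. Values are given as deposited, with the labels' order turned (set2 and set4 with opposite sign), and with set2 and set3 turned. In the last form the sign was the same on all 4 arrays for 47.5% of the 25818 features with 4 values, against 8.67% as deposited and 4.94% turned by the labels. Its overall sign is called likely agamous over wild type because the anther genes ATA20 and EMS1, which are not SWEET genes, were negative in it and agamous flowers lack stamens. With the opposite overall sign every "lower" becomes "higher" and each value keeps its size.

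SWEET8 and SWEET9 had the large ratios of the 4 genes, with sizes between 3.61 and 5.76 on the log2 scale on every array. With set2 and set3 turned, the mean log2 ratios were -4.68 for SWEET8 and -4.55 for SWEET9, likely lower in agamous. SWEET2 averaged -0.76 and did not pass the test, and SWEET10 averaged 0.16 with signs that differed between arrays. Of the 4 genes, 2 were lower and 0 higher at an adjusted p under 0.05 by limma, while 3 had an unadjusted p under 0.05. Over all 26100 features tested, 9.16% were lower and 8.23% higher, and 9549 had an unadjusted p under 0.05. The median of the 4 genes was -2.66, beside 0.15 over all features. Centring each array on its median moved that 0.15 to 0.02 and the split of all calls to 2670 lower and 887 higher, in place of 2392 and 2147.

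**Figure D1:**
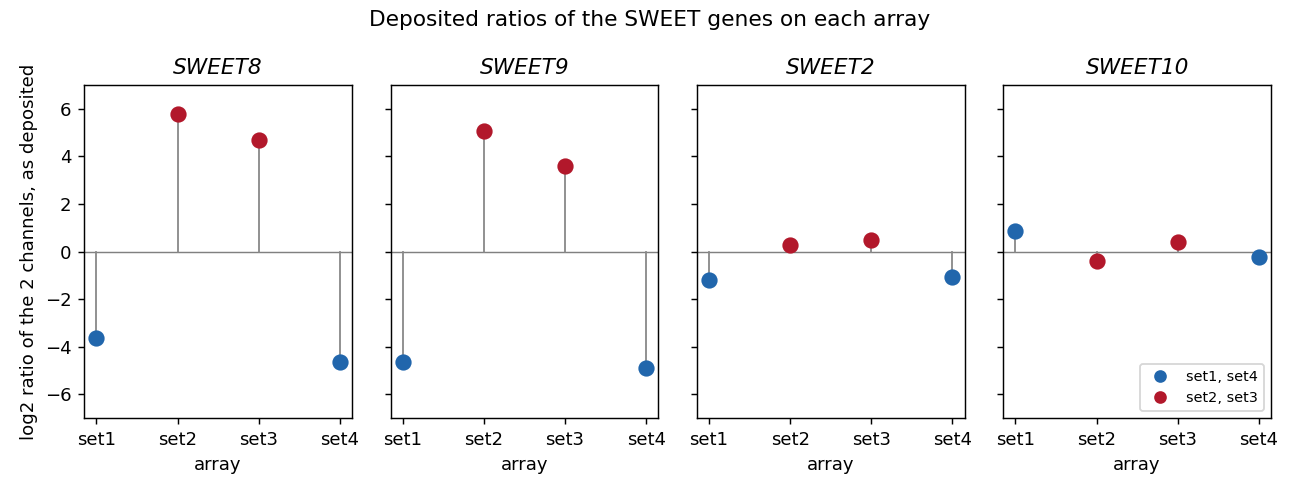
Log2 ratio of the 2 channels as deposited (vertical axis) for SWEET8, SWEET9, SWEET2 and SWEET10 on arrays set1 to set4 (horizontal axis). Each point is 1 array; SWEET8 and SWEET9 lie between -3.65 and -4.90 on set1 and set4 and between 3.61 and 5.76 on set2 and set3.

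SWEET8, also RUPTURED POLLEN GRAIN1 (AT5G40260, chromosome 5), is a plasma membrane glucose transporter of the tapetum and young microspores and is needed for the pattern of the pollen wall. As deposited, its log2 ratios were -3.65 on set1, 5.76 on set2, 4.68 on set3 and -4.62 on set4. Set1 and set4 thus stood below 0 and set2 and set3 above it, with no value near 0. In folds between the channels these sizes were 12.5, 54.1, 25.7 and 24.6. With set2 and set3 turned, the mean was -4.68 ± 0.86 (SD, n = 4), a 25.6-fold difference (95% interval -5.61 to -3.75, adjusted p = 0.00318, limma), negative in 4 of 4 arrays. Only 70 of 26100 features (0.268%) had a mean as low or lower, among them 9 of 5407 loci. As deposited the mean was 0.54 ± 5.43 and turned by the labels -0.03 ± 5.47 (SD, n = 4 each), both with adjusted p = 1.0 (limma), because the arrays cancel.

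SWEET9 (AT2G39060, chromosome 2) is the sucrose exporter through which nectaries secrete nectar. Its deposited log2 ratios were -4.62 on set1, 5.08 on set2, 3.61 on set3 and -4.90 on set4. The arrays divide as they do for SWEET8, and set3 rather than set1 holds the smallest size. In folds the sizes were 24.5, 33.9, 12.2 and 29.9. Its mean with set2 and set3 turned was -4.55 ± 0.66 (SD, n = 4), a 23.5-fold difference (95% interval -5.28 to -3.83, adjusted p = 0.00194, limma), negative in 4 of 4 arrays, and 84 features (0.322%) were as low or lower, 13 of them loci. As deposited the mean was -0.20 ± 5.29 and turned by the labels -0.30 ± 5.29 (SD, n = 4 each), with adjusted p = 1.0 for both (limma). Neither SWEET8 nor SWEET9 reached the bound of 6.64, a 100-fold ratio at which the deposited values end, but whether either channel stood near background was not tested, since the ratios carry no signal.

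The size of these ratios can be read without any choice of sign. On set2, 0.934% of 26009 features had a ratio at least as large as that of SWEET8 and 1.13% one at least as large as that of SWEET9. On the other arrays these shares lay between 2.14% and 4.38% for SWEET8 and between 3.10% and 3.72% for SWEET9. Most of the features counted on set1, set2 and set4 stood at the bound. For SWEET9 these were 876 of 969 on set1, 213 of 294 on set2 and 753 of 807 on set4. For SWEET8 they were 876 of 1140, 213 of 243 and 753 of 831. On set3, 351 features stood at the bound, of 558 as large as SWEET8 and 837 as large as SWEET9. The median size over all features was 0.34 to 0.44.

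SWEET2 (AT3G14770, chromosome 3) is a sugar transporter of the vacuolar membrane, known from roots, where it limits loss of sugar to the soil. Its deposited log2 ratios were -1.19 on set1, 0.28 on set2, 0.50 on set3 and -1.08 on set4. The signs follow those of SWEET8 and SWEET9, and the sizes are smaller and uneven, with set1 and set4 further from 0 than set2 and set3. In folds they were 2.28, 1.21, 1.42 and 2.12. The mean with set2 and set3 turned was -0.76 ± 0.44 (SD, n = 4), a 1.70-fold difference (95% interval -1.28 to -0.25, adjusted p = 0.0627, limma), negative in 4 of 4 arrays. The threshold was thus missed over all features, although the interval of this single gene does not hold 0. With values at the bounds treated as missing, which changes no value of SWEET2, the adjusted p was 0.0347, the lowest of 12 alternatives that reached 0.159. It was -0.37 ± 0.89 as deposited and 0.03 ± 0.99 turned by the labels (SD, n = 4 each, adjusted p = 1.0 for both, limma).

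SWEET10 (AT5G50790, chromosome 5) is a sucrose transporter known from the shoot apex, where it is induced during the change to flowering. Its deposited log2 ratios were 0.87 on set1, -0.39 on set2, 0.39 on set3 and -0.23 on set4, between 1.17-fold and 1.83-fold. Set1 and set3 stood above 0 and set2 and set4 below it, an order that differs from that of the other 3 genes and follows the labels. With set2 and set3 turned, the mean was therefore 0.16 ± 0.58 (SD, n = 4, 95% interval -0.49 to 0.81, adjusted p = 0.670, limma), positive on 2 arrays and negative on 2. This interval spans 0 on both sides, so SWEET10 is not shown to be equal in the 2 inflorescences. Turned by the labels, all 4 arrays were positive, with a mean of 0.47 ± 0.28 (SD, n = 4, 95% interval 0.01 to 0.94), but the adjusted p was 1.0 (limma), and as deposited the mean was 0.16 ± 0.58 (adjusted p = 1.0). Sizes of 0.23 to 0.87 are common on these arrays: between 22.7% and 66.3% of features had one at least as large.

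As deposited, 0 of the 4 genes passed limma's test (0 at an unadjusted p under 0.05), beside 59 of 26100 features (0.226%). Turned by the labels, 0 of the 4 passed (1 at an unadjusted p under 0.05, SWEET10), beside 0 of 26100 features (0%, with 191 at an unadjusted p under 0.05). Results below are for set2 and set3 turned unless stated. That form was itself chosen from the tested arrays, a choice that its p-values leave out.

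Compared array by array, SWEET8 and SWEET9 did not differ beyond their spread. SWEET8 minus SWEET9 averaged -0.12 ± 0.92 (SD, n = 4) and ran from -1.07 to 0.97, with SWEET8 the lower on 2 of 4 arrays. SWEET8 lay below SWEET2 by a mean difference of -3.91 ± 1.26 and below SWEET10 by -4.84 ± 0.88. For SWEET9 these differences were -3.79 ± 0.74 and -4.71 ± 1.07 (SD, n = 4 each). In these 4 comparisons the lower gene was lower on 4 of 4 arrays, and the 2 ranges did not overlap. SWEET2 minus SWEET10 averaged -0.92 ± 0.82, negative on 4 of 4 arrays, but their ranges overlapped. Over the 6 pairs a two-sided exact permutation test cannot go below 0.125 with 4 arrays, and the 5 pairs other than SWEET8 with SWEET9 reached that value (0.15 adjusted over the pairs). These are differences between ratios, not between levels of the transcripts.

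**Figure D2:**
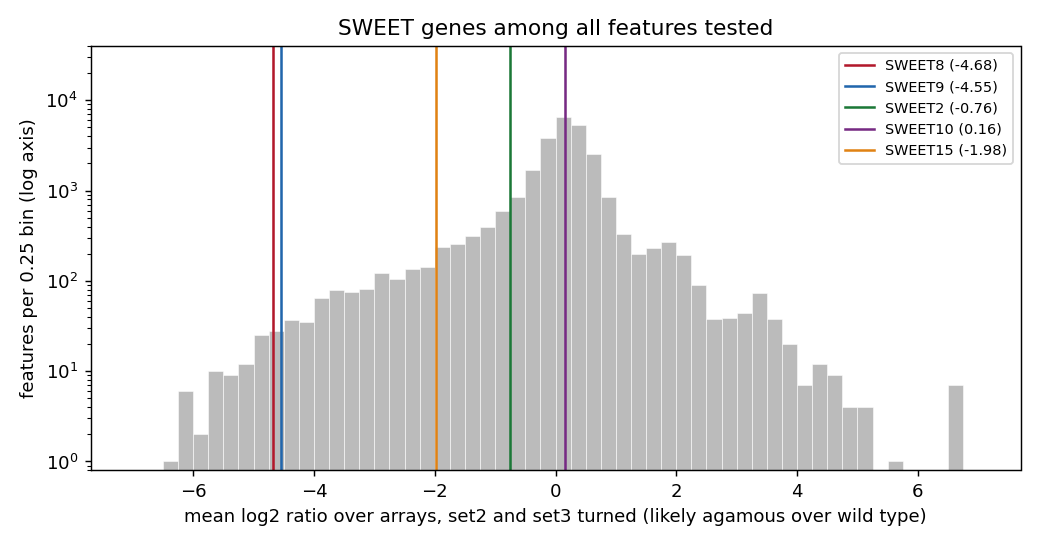
Number of features (vertical log axis, bins of 0.25) by mean log2 ratio over the arrays with set2 and set3 turned (horizontal axis), for the 26100 features tested, with vertical lines at 5 SWEET genes. SWEET8 (-4.68) and SWEET9 (-4.55) lie in the far lower tail and SWEET10 (0.16) in the tallest bin.

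SWEET15 (AT5G13170), a sucrose transporter first described as a senescence gene and known also for filling of seeds, was lower too. Its deposited log2 ratios were -2.35 on set1, 0.90 on set2, 1.84 on set3 and -2.84 on set4, the sign order of SWEET8 and SWEET9. The turned mean was -1.98 ± 0.83 (SD, n = 4), a 3.95-fold difference (95% interval -2.88 to -1.09, adjusted p = 0.0275, limma), negative in 4 of 4 arrays. The call of SWEET15 ended without set1 (adjusted p = 0.0967), set3 (0.0870) or set4 (0.0700), and with quantile normalization (0.0513), a channel term (0.0756), no moderation (0.0964) or averaged pairs of arrays (0.0763). The adjusted p ran from 0.00778 to 0.0967 over 12 alternatives. Of the 5 family genes with a probe of their own, 3 were thus lower and 0 higher, with a median of -1.98. These are SWEET8 and SWEET9, already counted above, and SWEET15. Over all features, 9.16% were lower and 8.23% higher. SWEET15 averaged -0.61 ± 2.33 as deposited and 0.36 ± 2.40 in the labels' form (SD, n = 4 each, adjusted p = 1.0 for both, limma).

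The 10 probes listed for several genes, all of them SWEET genes, give ratios of the family that cannot be assigned to 1 gene. Probes that list the same gene are not independent. Of these 10 probes 6 were lower and 0 higher, beside 9.16% and 8.23% of all features, with a median of -2.05. An unadjusted p under 0.05 was found for 9 of them, beside 9549 of 26100 features. By limma, 0 of 10 passed as deposited and 0 of 10 in the labels' form, with 0 at an unadjusted p under 0.05 in each.

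SWEET8 is also listed with relatives on 2 probes, both lower. Probe A014258_01, listed for SWEET6, SWEET7 and SWEET8, had deposited ratios of -3.66, 3.75, 5.02 and -4.88 on set1 to set4 and a turned mean of -4.33 ± 0.72 (SD, n = 4, adjusted p = 0.00259, limma), a call that ended with averaged pairs of arrays (adjusted p = 0.0508, the highest of 12 alternatives from 0.000206). Probe A022923_01, listed for SWEET4, SWEET5 and SWEET8, had -3.39, 3.67, 3.36 and -3.14, with a mean of -3.39 ± 0.22 (SD, n = 4, adjusted p = 0.000903). SWEET5 is also VEX1, named for the vegetative cell of pollen. The probes that list the same relatives without SWEET8 had other values. Probe A009891_01 (SWEET4 and SWEET5) had -2.22, 1.26, 0.17 and -1.50 and a mean of -1.28 ± 0.85 (SD, n = 4, adjusted p = 0.0703), the same signs at smaller size. Probe A024097_01 (SWEET6 and SWEET7) had -0.40 and -0.63 on set1 and set2 and the bound of 6.64 on set3 and set4, so it gives no usable mean.

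SWEET13 and SWEET14 are sucrose transporters with roles in anthers, and SWEET13 is the next protein-coding gene after SWEET10 in the reference annotation. The probe listed for SWEET13 and SWEET14, A022418_01, had deposited ratios of -3.50, 4.16, 5.13 and -3.32 on set1 to set4. Its turned mean was -4.03 ± 0.82 (SD, n = 4, adjusted p = 0.00421, limma), a 16.3-fold difference. Probe A018935_01, listed for SWEET10 with SWEET13 and SWEET14, had -2.89, 3.33, 2.95 and -2.08 and a mean of -2.81 ± 0.53 (SD, n = 4, adjusted p = 0.00381). All 4 of its ratios were larger in size than any on the probe assigned to SWEET10 alone, whose largest was 0.87. Which transcripts bind the shared probe was not tested.

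SWEET1, a glucose transporter, and SWEET3 share a probe without SWEET2 and another with it. Probe A017334_01 (SWEET1 and SWEET3) had -3.09, 4.40, 3.92 and -3.15 on set1 to set4 and a turned mean of -3.64 ± 0.63 (SD, n = 4, adjusted p = 0.00301, limma). Probe A003412_01, which lists SWEET2 with these, had -0.26, 0.69, 0.77 and -0.54 and a mean of -0.56 ± 0.23 (SD, n = 4, adjusted p = 0.0462), close in size to the -0.76 of SWEET2 alone. That call ended when any 1 array was left out (adjusted p 0.0661 to 0.173), and under other settings the adjusted p was 0.0279 to 0.142. The carriers of the vacuolar membrane SWEET16 and SWEET17 share both remaining probes, A011698_01 with a mean of 0.33 ± 0.19 and A014692_01 with 0.37 ± 0.25 (SD, n = 4 each, adjusted p = 0.120 and 0.126), positive on 4 of 4 arrays and not past the test.

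**Figure D3:**
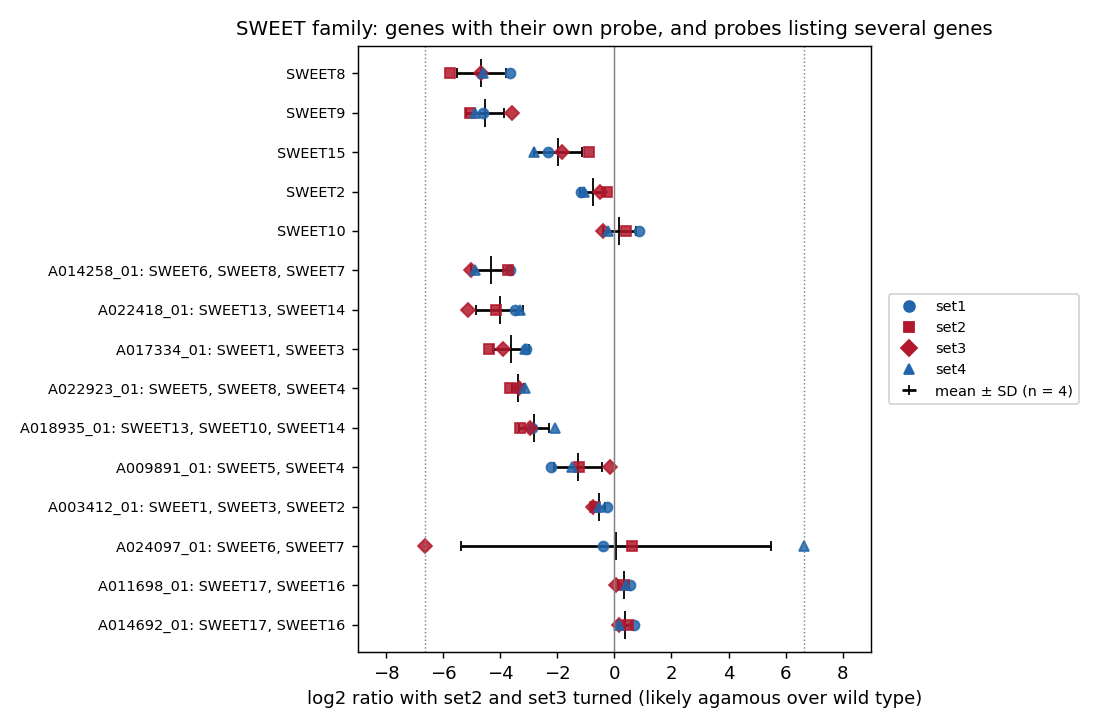
Log2 ratios with set2 and set3 turned (horizontal axis) for the 5 SWEET genes with a probe of their own and the 10 probes listed for several SWEET genes (rows, probe and listed genes). Points are arrays, black bars the mean ± SD (n = 4), dotted lines the bounds at 6.64 and -6.64; 7 rows have means of -2.81 or lower, and both SWEET16 and SWEET17 probes lie just above 0.

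Genes of sugar transport and metabolism outside the family were measured in small number, 5 in all, of which 0 were lower. With 9.16% of all features lower, so small a count shows no contrast with the SWEET genes. Of 43 sucrose, hexose and polyol transporters listed, 3 had a probe of their own, of which 0 were lower and 1 was higher. STP3, a plasma membrane hexose carrier, had deposited ratios of 1.43, -1.47, -0.68 and 1.01 on set1 to set4 and a turned mean of 1.15 ± 0.37 (SD, n = 4, adjusted p = 0.0199, limma), likely higher in agamous. The call of STP3 ended without set1 (adjusted p = 0.0747), set2 (0.101) or set4 (0.0648), and with quantile normalization (0.121), a channel term (0.0619), no moderation (0.0726) or averaged pairs of arrays (0.122). Over 12 alternatives the adjusted p was 0.00663 to 0.122. TMT1, which loads hexoses into the vacuole, had 0.28 ± 0.34 (adjusted p = 0.271). PLT4, a polyol transporter by family, had the bound of 6.64 on set1 and -1.24, -0.85 and 0.72 on the other arrays. Its turned mean of 2.36 ± 2.86 (adjusted p = 0.210, limma) rests on that value. The mean was 0.93 both with values at the bounds missing (adjusted p = 0.0192) and without set1 (0.0627), so only the former passed. The highest adjusted p of its alternatives was 0.351, without moderation, a setting that keeps the value at the bound.

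Of 18 enzymes that cleave or make sucrose, 2 were measured, and 0 passed by limma (0 at an unadjusted p under 0.05). CWINV6, of the cell wall invertase family, had 0.03 ± 0.16 (adjusted p = 0.886) and the sucrose phosphate synthase SPS4F 0.13 ± 0.35 (SD, n = 4, adjusted p = 0.600). Both changed sign when each array was centred on its median, to -0.11 and -0.01. CWINV4, the invertase that works with SWEET9 in nectaries, had no probe of its own.

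Listed genes of nectaries and floral volatiles, of anthers and pollen, and of carpels and ovules were set beside SWEET8 and SWEET9. Few genes of each list were measured, and 9.16% of all features were lower, so the counts describe single genes and not organs. Of 14 genes in the nectary and floral volatile list, 3 were measured and 2 were lower. These were the terpene synthases TPS24 with -3.50 ± 0.24 (adjusted p = 0.000903, limma) and TPS11 with -2.53 ± 0.67 (SD, n = 4, adjusted p = 0.00892). CRC, CWINV4, BOP1, BOP2 and PIN6 of this list had no probe of their own. TPS11 lost its call without set1 (adjusted p = 0.0507) or set2 (0.0636) and without moderation (0.0572), in a range of 0.00136 to 0.0636 over 12 alternatives. JMT, which makes methyl jasmonate, averaged -0.07 ± 0.90 and was not past the test (adjusted p = 0.913). Of 36 genes in the anther and pollen list, 4 were measured and 2 were lower. These were ATA20 with -2.83 ± 0.24 and EMS1, the receptor kinase that sets up the tapetum, with -1.35 ± 0.03 (SD, n = 4 each). The list's median was -0.89. ATA20 rests on 2 probes with means of -3.77 and -1.89, both past the test. On each array the ratio of SWEET8 was further from 0 than that of ATA20. SPL, which starts sporogenous cells, had -0.22 ± 0.10 and the pollen tubulin TUA1 -0.44 ± 0.15, and neither passed, although TUA1 did when each array was centred on its median (-0.57, adjusted p = 0.0352, with 0.162 the highest of its alternatives). ATA20 and EMS1 set the overall sign and carry no further evidence of it. Of 10 carpel and ovule genes listed, 2 were measured and both were lower. These were the transmitting tract regulator CES with -4.99 ± 0.77 and the ovule integument factor INO with -1.52 ± 0.47 (SD, n = 4 each, adjusted p = 0.00219 and 0.0155, limma). INO rests on 3 probes, of which A004600_01 and A021685_01 did not pass alone, and it lost its call without set2 (adjusted p = 0.0752), set3 (0.0639) or set4 (0.0615), and without moderation (0.0683), with 0.00388 the lowest under any setting. Whether SWEET8 and SWEET9 differ beyond the share of organs that differs between the inflorescences was not tested.

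**Figure D4:**
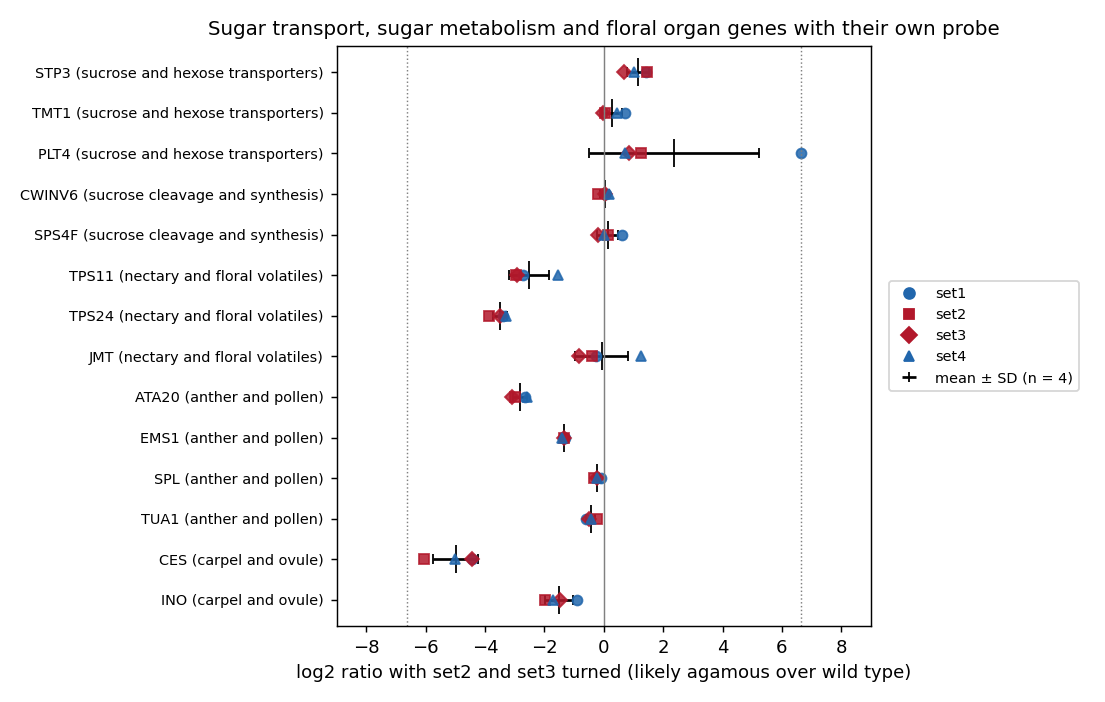
Log2 ratios with set2 and set3 turned (horizontal axis) for genes with a probe of their own from the lists of sugar transport, sugar metabolism and floral organs (rows). Points are arrays, black bars the mean ± SD (n = 4) and dotted lines the bounds. TPS24, ATA20 and CES lie below -2.5 on all arrays. Of the other organ genes, TPS11 averages -2.53 with -1.54 on set4, and EMS1 and INO average -1.35 and -1.52. JMT, SPL and TUA1 average -0.07, -0.22 and -0.44. The sugar transporters and sucrose enzymes lie near or above 0, with 1 value of PLT4 at the bound.

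Among 531 other loci with a symbol and 4 values, likeness to each SWEET gene was measured as the Euclidean distance between the 4 deposited ratios, a description of these arrays alone. The nearest to SWEET9 were GRI (distance 0.54), CES (1.30) and BGLU36 (1.56). GRI, the precursor of a cell-death signalling peptide, had -4.67, 5.32, 4.06 and -5.11 on set1 to set4. The same 3 genes were nearest to SWEET8, in the order CES (0.97), BGLU36 (1.24) and GRI (1.37), each farther away than GRI is from SWEET9. BGLU36, of the beta-glucosidase family, had a turned mean of -4.30 ± 0.40 (SD, n = 4, adjusted p = 0.00101, limma). Nearest to SWEET2 were WRKY6, a transcription factor of senescence and pathogen defence (0.55), the alpha-amylase AMY1 (0.56) and the myosin XIJ (0.64). Their turned means were -0.81 ± 0.30, -0.93 ± 0.20 and -0.71 ± 0.14 (SD, n = 4 each), and all 3 passed where SWEET2 did not (adjusted p = 0.0302, 0.0128 and 0.0185). These calls ended without 1 array in turn, for WRKY6 and XIJ whichever was left out (adjusted p 0.0513 to 0.126 and 0.0662 to 0.0774) and for AMY1 without set2 (0.0598) or set4 (0.0548). They also ended with averaged pairs of arrays (0.0942 for WRKY6, 0.119 for XIJ and 0.0802 for AMY1), with a channel term for WRKY6 (0.0740) and XIJ (0.0636), and without moderation for WRKY6 (0.0818). Nearest to SWEET10 were HRGP1 (0.20), MAP1A (0.31) and GH3.9 (0.43), with turned means of 0.20, 0.22 and 0.11, none past the test.

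Genes beside the SWEET genes on the chromosome were examined after the values had been seen. Of the 16 positions made by the 2 protein-coding genes on either side of each, 3 had a probe of their own. EULS3, next to SWEET9, had -0.28, 0.32, 0.20 and -0.30 on set1 to set4, a turned mean of -0.28 ± 0.05 (SD, n = 4, adjusted p = 0.102, limma), against -4.55 for SWEET9. AT2G39040, beyond EULS3, had 0.32 ± 0.23 (adjusted p = 0.151). AT3G14760, next to SWEET2, had 0.32 ± 0.18 (SD, n = 4, adjusted p = 0.115), the opposite sign to SWEET2.

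The calls of SWEET8 and SWEET9 held under each of 12 alternatives, with adjusted p at most 0.0386 and 0.0317 (limma). All 12 kept set2 and set3 turned. Single probes, values on all 4 arrays and values at the bounds missing change no value of either gene, so they are weak checks. The channel term followed the labels' channel order, against which the ratios ran. Without 1 array in turn the mean of SWEET8 ran from -5.02 to -4.32 and that of SWEET9 from -4.87 to -4.38. SWEET2 kept its sign under all 12. SWEET10 had a mean of 0.02 when each array was centred on its median, and without set1 its mean was -0.08.

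**Figure D5:**
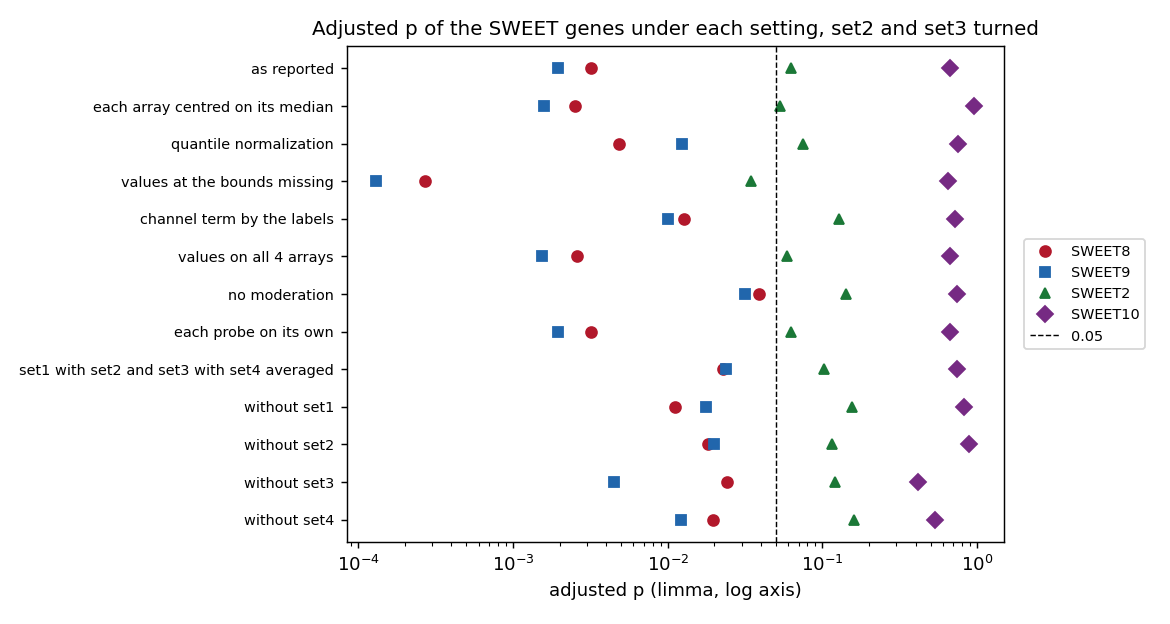
Adjusted p (horizontal log axis, limma) of SWEET8, SWEET9, SWEET2 and SWEET10 with set2 and set3 turned, as reported and under 12 alternatives (rows). The dashed line marks 0.05; SWEET8 and SWEET9 lie left of it in every row, SWEET10 right of it in every row, and SWEET2 left of it only with values at the bounds missing (0.0347).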

How the data were processed

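Log2 ratios of the 2 channels were deposited by the authors, 1 per feature and array. The labels refer to a publication for the normalization, and its steps, the numerator channel and whether swapped arrays were turned are not given in the sources used here. That they are on a log2 scale follows from their bounds, 6.64 and -6.64 (100-fold), and scanner signals were not used here. Median ratios of set1 to set4 were 0.16, -0.14, -0.11 and 0.13, so the centring stays unknown beyond these. Of 26474 probes, 5784 had 1 gene in the platform annotation, 7497 several and 13193 none listed. Through the RefSeq table of TAIR10.1, 5756 were matched to a locus, and probes of a locus were averaged. The table was used for names and neighbours, since no build is named for the probes. The 424 empty and 35 control features were left out.

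Features with at least 3 values were tested, all arrays together, against 0 (two-sided) with limma 3.58.1 in R 4.3.3, moderated, with Benjamini-Hochberg adjustment over all features at 0.05. The code was tested on simulated data. Lists held 137 loci. Of these, 134 were paired with their symbol in the reference table and 19 of those had a probe of their own. Named were the 4 SWEET genes, each list gene with a probe of its own and the 3 loci nearest to each SWEET gene in pattern. The genes, lists and tests were chosen with earlier results of these data known, and the probes listed for several SWEET genes were added after the annotation was seen. Alternatives were centring, quantile normalization, values at the bounds missing, a channel term by the labels and 4 values only. The others were no moderation, single probes, averaged pairs of arrays and each array left out. The ratios did not follow the labels' channel order, so the channel term cannot show whether a channel bias was removed. No sequence of the probes, promoters or proteins was used here.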

Additional observations from a re-analysis of the deposited data

Results flagged for a closer look

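For each named gene or probe, the 4 turned values were examined for 1 array far from the others, and for the 4 SWEET genes also both other forms of the ratios. Of 48 such groups 2 held an array whose gap to its neighbour took up most of the range, where chance gives about 1 in 20. None was a SWEET gene. PLT4 had 6.64 on set1, the bound, with 0.72 to 1.24 on the other arrays. TPS11 had -1.54 on set4, against -2.72 to -2.94 on the others.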

How the results depend on the processing

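With set2 and set3 turned, SWEET8 and SWEET9 kept their direction and stayed past the threshold under all 12 alternatives, some of which change none of their values. SWEET2 passed with values at the bounds missing (-0.76, adjusted p = 0.0347, limma), a setting that changes no value of SWEET2. Why its adjusted p fell was not tested. The count of 4539 features called was 1749 with a channel term, 1869 without moderation, 1024 with averaged pairs of arrays and 1050 to 1899 without 1 array. Lower features numbered 1423, 1140, 919 and 972 to 1492 in these settings, and higher ones 326, 729, 105 and 78 to 514, with 887 after centring and 1376 after quantile normalization. The 59 features called as deposited became 0 with values at the bounds missing (392 at an unadjusted p under 0.05 by limma), 17 with a channel term, 20 with values on all 4 arrays, 14 with averaged pairs and 18 to 224 without 1 array. The 0 turned by the labels became 1 without moderation and 0 to 44 without 1 array, the 44 without set4. Leaving out an array or pairing arrays leaves fewer values; for the other settings the cause was not tested.

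Signs changed for means near 0. The mean of A024097_01 was near 0 only because values at both bounds cancel. Those of SWEET8 and SWEET9, as deposited and turned by the labels, were near 0 only because large ratios of opposite sign cancel. After centring, CWINV6 was -0.11 (likewise on its probe A016241_01), SPS4F -0.01, GH3.9 -0.02 and A024097_01 -0.08, the last -0.17 after quantile normalization. Without 1 array the range was -0.08 to 0.34 for SWEET10, -0.03 to 0.10 for CWINV6, -0.03 to 0.24 for SPS4F, -0.50 to 0.19 for JMT, -2.14 to 2.29 for A024097_01, -0.06 to 0.27 for GH3.9 and -0.06 to 0.35 for HRGP1. As deposited it was -1.19 to 2.26 for SWEET8, -1.97 to 1.36 for SWEET9 (0.29 after quantile normalization) and -0.07 to 0.35 for SWEET10. Turned by the labels it was -0.32 to 0.44 for SWEET2, -1.60 to 1.89 for SWEET8 (0.34 after quantile normalization) and -2.03 to 1.30 for SWEET9 (0.11). Each ratio already pairs both RNAs of an array, so no further block was fitted. Ratios at the bounds limit what can be measured, and signal over background was not used here.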
